A study of Homo sapiens with 27 samples.

Results

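The genes described here are 51 genes of DNA replication and S phase, among them the MCM helicase, the replicative polymerases, the sliding clamp and its loader, the origin licensing factors and the enzymes of nucleotide supply. They were chosen by gene symbol, and their transcripts were collected from 6 nanopore libraries of RM82, an established Ewing sarcoma cell line. All 51 were listed in these libraries, which together list 18701 genes, and 43 of the 51 had enough counts to be tested, as had 6344 genes in all. The treatment label of 3 libraries reads CLK1, which the treatment protocol and the study give as SGC-CLK-1, an inhibitor of the splicing kinase CLK1. These are called the SGC-CLK-1 libraries here, and cells of the other 3 were labelled as given the solvent dimethylsulfoxide (DMSO) as control. The study's methods give 24 h of treatment, and the sources used here name neither a dose nor a genetic change in either group. Each molecule carried a unique molecular identifier (UMI), so that the deposited value is a number of UMIs per transcript. Nothing in the labels says that the 3 libraries of a group came from separate cultures, while the study states in general terms that its experiments were repeated independently. P-values therefore measure the spread between these libraries, which may be technical.

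DNA replication begins at origins, where the origin recognition complex, CDC6 and CDT1 load the MCM2 to MCM7 hexamer onto DNA in G1. In S phase CDC45 and the GINS complex join the hexamer to form the active helicase, primase with polymerase alpha starts each strand, and polymerases delta and epsilon extend it on the PCNA clamp that the RFC complex loads. Many genes of this machinery carry E2F elements in their promoters and are transcribed most strongly around the transition from G1 to S phase. In bulk libraries, more cells in S phase and more of these RNAs in each cell cannot be told apart.

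The total count was 666702, 362826 and 373004 UMIs in SGC-CLK-1 libraries 1 to 3 and 416352, 523456 and 372876 in DMSO libraries 1 to 3. Values per library are given in that order below, as CPM, counts scaled to a common library size of 1e6. A UMI stands for a molecule, so CPM was not divided by length. A gene called the most abundant of its group has the highest gene sum in CPM. Secondary alignments of a read were kept, so a gene sum can count a molecule once for each of several similar transcripts. Such a rank can therefore depend on how many similar transcripts a gene has. At this depth 3 counts of a gene correspond to between 5.17 and 9.97 CPM, and this floor covers counting error only. Groups follow the treatment labels in GEO, and these are in doubt. The FRG2 transcript ENST00000645766 had 96, 88 and 95 counts in the DMSO-labelled libraries and 64, 44 and 60 counts in those with the inhibitor's label. The study draws this transcript after UMI-tools and after its own homotrimer correction of UMIs. In the homotrimer bars, the ones read here, the higher counts stand under the inhibitor, so labels and drawing disagree on which group is which. Which correction made the deposited counts is not settled. The TLE5 transcript ENST00000221561, which the study draws as well, had 11, 8 and 7 counts under the SGC-CLK-1 label and 10, 10 and 12 under the DMSO label, too few and too close to tell the groups apart. These counts do not show which naming is right. Every direction given below follows the labels and would turn if the labels were exchanged. RM82 was checked against markers of Ewing sarcoma, of which 11 of 13 were listed and 7 tested. CD99, the surface antigen used to diagnose this tumour, stood at 127, 106 and 130.5 CPM under the SGC-CLK-1 label and 185, 121 and 216 CPM under the DMSO label, while NKX2-2 and FLI1 were not listed in any of the 6 libraries. Of 12 plasma cell and myeloma markers, fixed because the study also used the myeloma line JJN3, 6 were not listed, among them SDC1 and TNFRSF17, and only CD38 was tested. The Ewing sarcoma markers NR0B1, LIPI, PRKCB and HES6 were listed but not tested, with at most 6, 11, 13 and 10 counts in a library. The marker lists summed to between 4859.8 and 6667 CPM for Ewing sarcoma, with CAV1 the most abundant, and to between 86.4 and 111 CPM for plasma cells, with CD38 the most abundant. CAV1 alone had between 3023 and 4696 CPM, so most of the Ewing sarcoma sum is CAV1.

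Replication genes were higher under the SGC-CLK-1 label more often than lower. Of the 43 tested, 16 were higher and 2 lower at an unadjusted p under 0.05, where 6.89% and 6.92% of all genes tested were. After Benjamini-Hochberg adjustment in edgeR's quasi-likelihood test over all genes, 3 rose and none fell, where 0.315% of all genes passed, 0.189% higher and 0.126% lower. In DESeq2 4 rose, MCM4 being added, and none fell, where 1.77% of all genes passed, 0.631% higher and 1.13% lower. The 3 that rose were ATAD2, HELLS and MCM3. The log2 fold change was above 0 for 34 of the 43, with a median of 0.43, beside 3174 of all 6344 genes and a median of 0.00066. The groups did not overlap, with all 3 SGC-CLK-1 libraries higher, for 18 of the 43, where 10.1% of all genes tested did so, and with all 3 lower for 2, where 9.66% did so. Of the 16, 11 stayed past that unadjusted threshold without each single library, and FEN1, LIG1, POLA2, RRM1 and TYMS did not. The same shares of all genes, 6.89% higher and 6.92% lower, stand behind the counts of each subgroup below. The genes were chosen with earlier results of these libraries known, so these counts are no independent evidence of a direction.

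**Figure D1:**
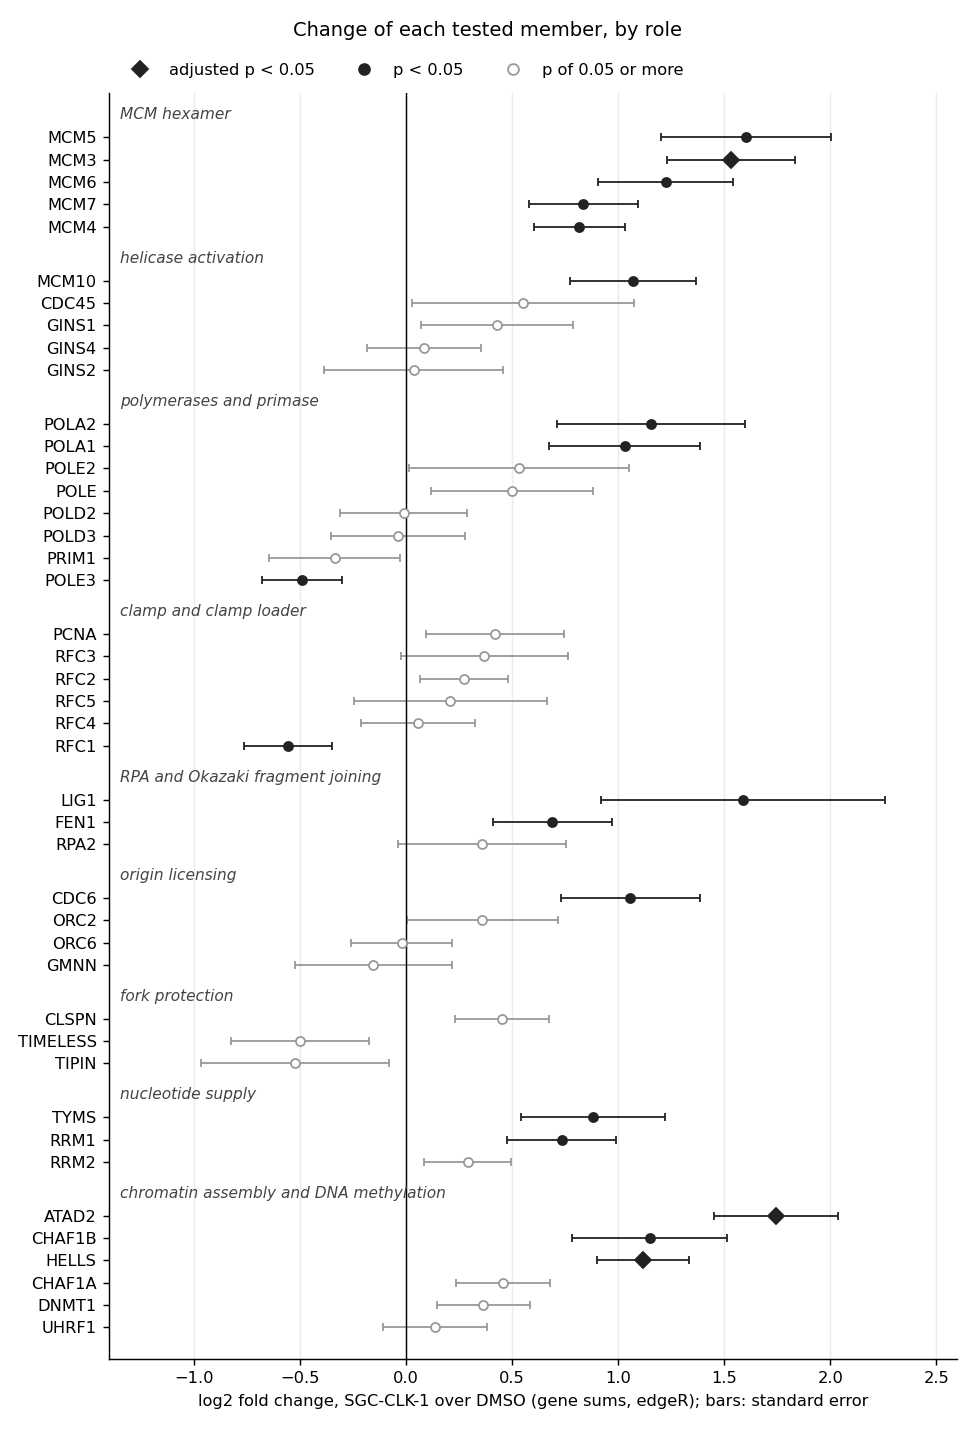
Log2 fold change (SGC-CLK-1 over DMSO, x axis) of the 43 tested genes by role, as points with standard errors from edgeR. Diamonds mark ATAD2, HELLS and MCM3 (adjusted p under 0.05), filled circles other genes with an unadjusted p under 0.05, and open circles the rest. The 5 MCM genes lie between 0.82 and 1.60, and POLE3 and RFC1 are the only filled symbols below 0.

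In the MCM hexamer, the ring that unwinds DNA ahead of the fork, all 5 tested genes were higher at an unadjusted p under 0.05, and MCM3 rose past the adjusted threshold. MCM3 had 179, 275 and 261 CPM under the SGC-CLK-1 label and 75.6, 111 and 53.2 CPM under the DMSO label. Every SGC-CLK-1 library lay above every DMSO library, and the log2 fold change was 1.53 (SE 0.30, adjusted p = 0.0498, edgeR's quasi-likelihood test, Benjamini-Hochberg adjusted over all genes). MCM5 had 146, 78.2 and 66.8 CPM against 39.2, 34.1 and 23.3 CPM, and its log2 fold change was 1.60 (SE 0.40, edgeR adjusted p = 0.090). SGC-CLK-1 library 1 was the highest for MCM5, and the groups again did not overlap. MCM6 had 96.5, 128 and 118 CPM against 47.6, 59.2 and 36.6 CPM, a log2 fold change of 1.22 (SE 0.32, edgeR adjusted p = 0.098). The most abundant of the ring was MCM4, with 498, 566 and 710.0 CPM against 316, 298 and 392 CPM and a log2 fold change of 0.82 (SE 0.21, edgeR adjusted p = 0.098). Both were separated between the groups in all libraries. MCM7 had 348, 372 and 209 CPM against 143, 196 and 183 CPM, and a log2 fold change of 0.84 (SE 0.26, edgeR adjusted p = 0.14), with SGC-CLK-1 library 3 close to the DMSO libraries. MCM7 shares 392 exon bases with AP4M1 on the opposite strand, whose log2 fold change was -0.74 (edgeR adjusted p = 0.31). MCM2 was too low to be tested, with 16, 4 and 4 counts against 4, 4 and 3 counts. The 6 genes together reached 1295, 1433 and 1377 CPM under the SGC-CLK-1 label and 633, 708 and 698 CPM under the DMSO label.

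**Figure D2:**
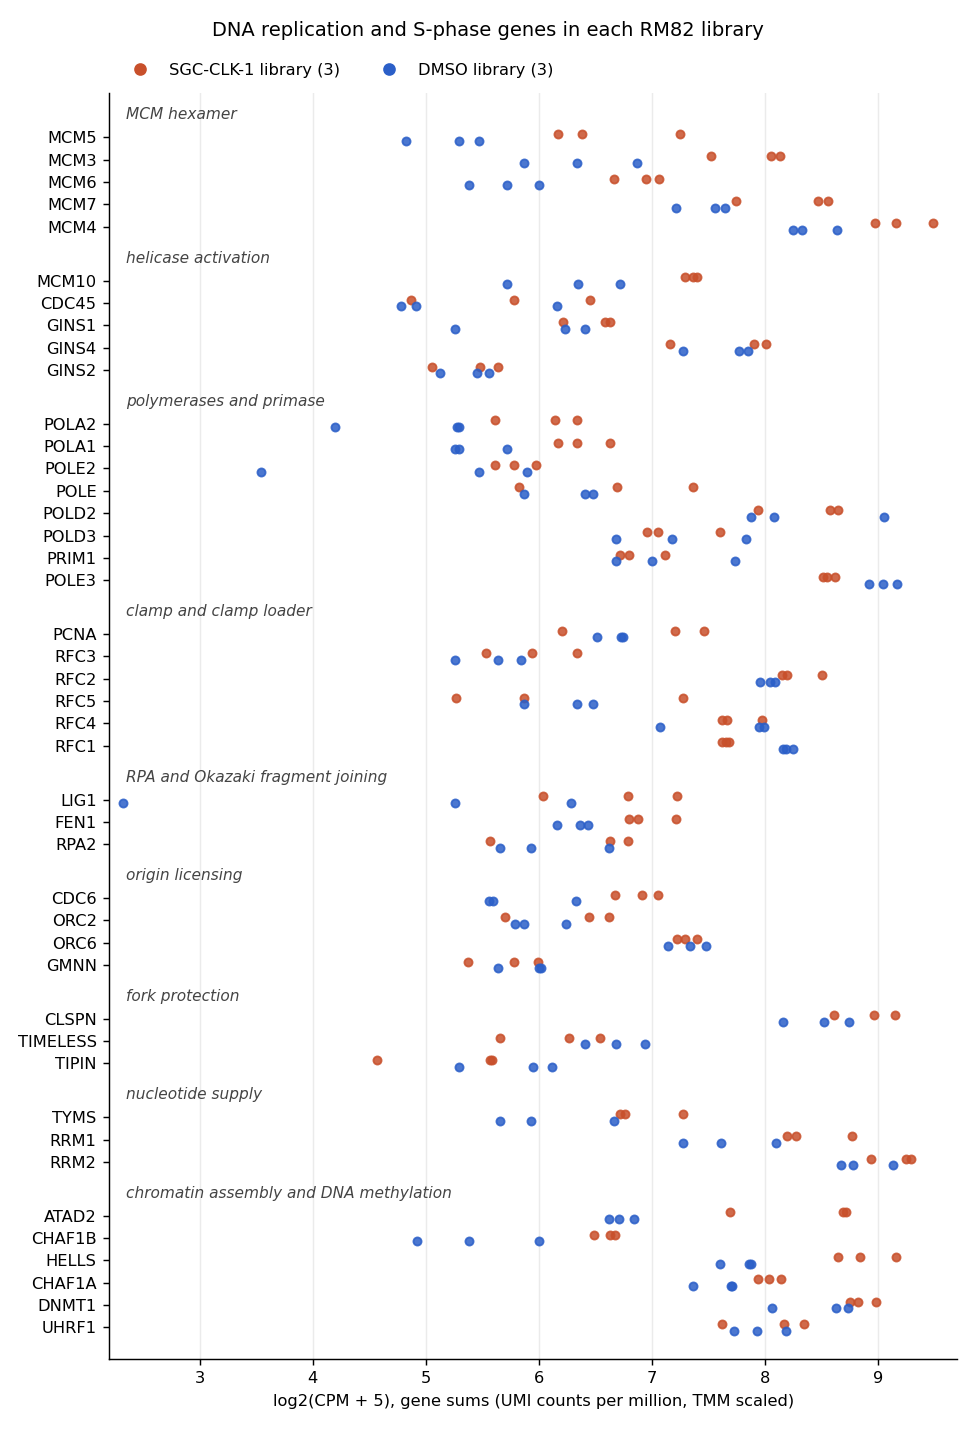
Level of each of the 43 tested genes in each of the 6 libraries, as log2(CPM + 5) on the x axis, with genes grouped by role. Orange points are the 3 SGC-CLK-1 libraries and blue points the 3 DMSO libraries. The points of MCM3 to MCM7 separate by group, those of RFC1 and POLE3 separate the other way, and LIG1 stands at 0 CPM in DMSO library 2.

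The promoters of these genes are shown because E2F elements are the feature they are best known to share. RefSeq promoter windows (GRCh38.p14, 250 bases before to 50 after an annotated start) were at hand for 44 of the 51 genes. There was no entry for MCM4, MCM5, GINS4, POLD3, RPA2, RPA3 and ATAD2. The windows were searched on both strands for 4 words of the E2F element, TTTCCCGC, TTTCGCGC, TTTGCCGC and TTTGGCGC, and matches may overlap. At least 1 word was found in 23 of the 44 genes (52.3%), and in 1090 of all 27305 genes with a window (3.99%). By window the shares were 24 of 58 (41.4%) and 1164 of 35116 (3.31%). All 4 MCM hexamer genes with a window held a word. Among the genes higher at an unadjusted p under 0.05 it was 9 of 13 (69.2%), among those tested and not higher 11 of 24 (45.8%), and among those not tested 3 of 7 (42.9%). The 2 genes that were lower, RFC1 and POLE3, held none. The comparison was not matched for base composition, and a match describes letters in a window, not a bound site. The 4 windows below belong to genes higher at an unadjusted p under 0.05 that held at least 2 separate matches. They are written 5′ to 3′ on the strand of the gene, with the matches in capitals. In MCM6 each run of 12 capitals holds TTTGGCGC on the strand shown and TTTCGCGC on the other.
MCM3, chr6:52284693-52284992, minus strand: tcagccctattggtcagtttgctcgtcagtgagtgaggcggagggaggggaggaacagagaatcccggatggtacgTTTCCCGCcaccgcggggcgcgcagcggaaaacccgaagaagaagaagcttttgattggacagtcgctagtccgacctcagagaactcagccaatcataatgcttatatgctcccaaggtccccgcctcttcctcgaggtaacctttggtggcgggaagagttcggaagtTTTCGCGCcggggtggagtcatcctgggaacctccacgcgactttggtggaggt
MCM6, chr2:135876394-135876693, minus strand: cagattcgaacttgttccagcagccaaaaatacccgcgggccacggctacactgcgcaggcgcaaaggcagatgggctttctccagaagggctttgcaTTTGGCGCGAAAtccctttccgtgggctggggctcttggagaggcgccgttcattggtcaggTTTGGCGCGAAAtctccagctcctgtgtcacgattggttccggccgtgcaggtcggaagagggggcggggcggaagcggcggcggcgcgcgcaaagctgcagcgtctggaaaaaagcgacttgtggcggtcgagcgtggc
MCM7, chr7:100101348-100101647, minus strand: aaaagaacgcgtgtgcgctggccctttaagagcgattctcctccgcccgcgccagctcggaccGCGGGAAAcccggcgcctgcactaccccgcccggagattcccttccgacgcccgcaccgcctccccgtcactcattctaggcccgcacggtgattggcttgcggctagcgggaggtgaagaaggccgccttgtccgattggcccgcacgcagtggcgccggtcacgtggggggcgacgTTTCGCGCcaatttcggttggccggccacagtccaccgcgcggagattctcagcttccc
HELLS, chr10:94545538-94545837, plus strand: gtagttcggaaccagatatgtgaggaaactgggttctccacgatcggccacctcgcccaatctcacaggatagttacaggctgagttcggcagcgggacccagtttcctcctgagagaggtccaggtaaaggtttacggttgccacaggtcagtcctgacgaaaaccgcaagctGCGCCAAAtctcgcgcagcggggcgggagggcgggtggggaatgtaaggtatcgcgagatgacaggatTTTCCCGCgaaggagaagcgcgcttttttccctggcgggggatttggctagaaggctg
The matches of MCM3 start 174 and 4 bases before the annotated start, and those of HELLS 76 and 8 bases before it. The HELLS window lies at the start of the canonical transcript. It is not the start of ENST00000371327, annotated from base 94588229 of chr10, which held 76.6% of the HELLS counts.

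**Figure D3:**
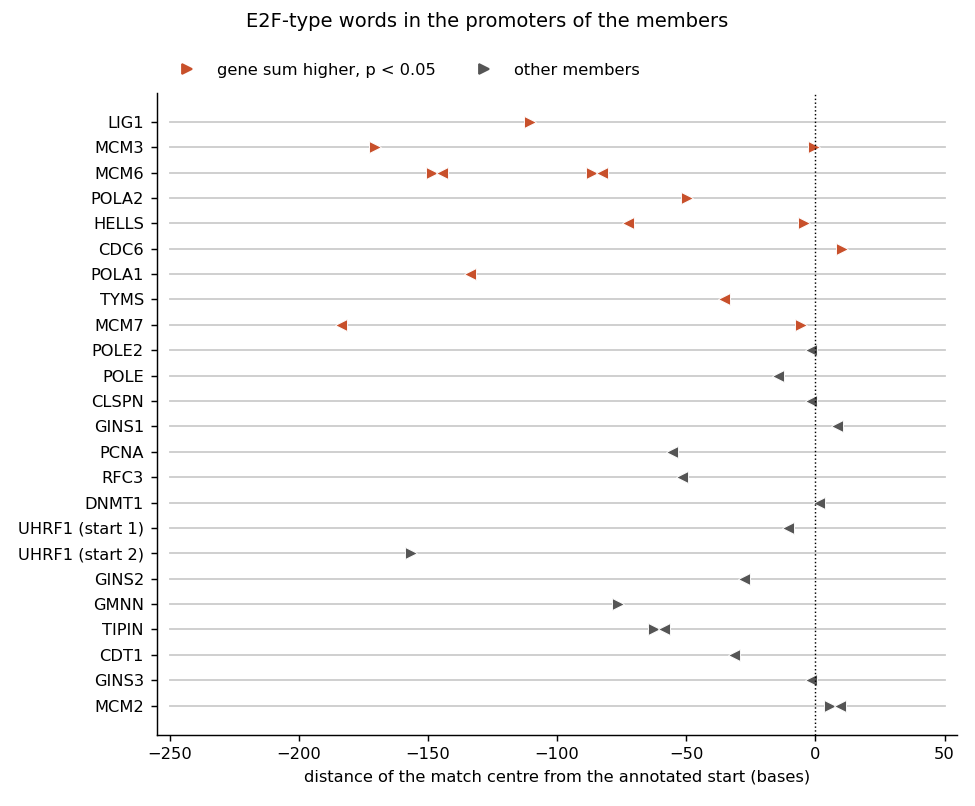
Position of each E2F word in the 24 promoter windows that hold 1, as the distance of its centre from the annotated start in bases (x axis). Triangles point along the strand of the match relative to the gene, orange for genes higher at an unadjusted p under 0.05 and grey for the others. Matches lie on both strands and most fall within 100 bases of the start, while MCM3, MCM6, MCM7 and HELLS each hold 2 separate places.

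Among the factors that turn the loaded ring into a working helicase, MCM10, a scaffold of helicase activation, was the only gene of 5 tested that was higher at an unadjusted p under 0.05. MCM10 had 164, 159.6 and 152 CPM against 47.6, 100.1 and 76.5 CPM, with no overlap between the groups and a log2 fold change of 1.07 (SE 0.30, edgeR adjusted p = 0.12). GINS4, the most abundant of the group, had 234, 138 and 252 CPM against 213, 225 and 149.6 CPM, so that the groups overlapped, and its log2 fold change was 0.09 (SE 0.27, edgeR adjusted p = 0.93). CDC45, GINS1 and GINS2 had log2 fold changes of 0.55 (SE 0.52), 0.43 (SE 0.36) and 0.04 (SE 0.42), with overlapping groups in each. GINS3 was not tested. Over the hexamer and these activators, 6 of 10 tested genes were higher at an unadjusted p under 0.05 and none lower, with a median log2 fold change of 0.83.

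The polymerase genes held differences in both directions. POLA1, the catalytic subunit of polymerase alpha, had 75.8, 93.9 and 66.8 CPM against 47.6, 34.1 and 33.2 CPM, a log2 fold change of 1.03 (SE 0.35, edgeR adjusted p = 0.20). Its partner POLA2 had 65.5, 43.8 and 75.9 CPM against 33.6, 34.1 and 13.3 CPM, a log2 fold change of 1.15 (SE 0.44, edgeR adjusted p = 0.25). Both subunits of the initiating polymerase were separated between the groups, although POLA2 lies over 2012 exon bases of a second annotated gene on the same strand, ENSG00000285816, which held 31 counts in all. POLE3, a histone-fold subunit of polymerase epsilon that also serves in chromatin remodelling, was the most abundant of the 10 genes and lower at an unadjusted p under 0.05. It had 369, 360 and 388 CPM against 479, 569 and 522 CPM, with all SGC-CLK-1 libraries below all DMSO libraries and a log2 fold change of -0.49 (SE 0.19, edgeR adjusted p = 0.25). POLE3 missed an unadjusted p of 0.05 without SGC-CLK-1 library 2 or DMSO library 2. POLE and POLE2, the catalytic and second subunits of the same enzyme, had log2 fold changes of 0.50 (SE 0.38) and 0.53 (SE 0.52) with overlapping groups. POLD2 and POLD3 of polymerase delta lay at -0.01 (SE 0.30) and -0.04 (SE 0.32), and the primase subunit PRIM1 at -0.34 (SE 0.31). PRIM1 overlaps NACA on the same strand by 139 exon bases, and NACA held 3146 counts against 290 for PRIM1, so reads may be shared. PRIM2 and POLD1 were not tested. Of the 8 tested genes, 2 were higher and 1 lower at an unadjusted p under 0.05, with a median log2 fold change of 0.24.

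Of the 6 genes of the clamp and its loader, none was higher at an unadjusted p under 0.05 and 1 was lower, with a median log2 fold change of 0.24. PCNA, the sliding clamp that tethers polymerases to DNA, had 171, 68.8 and 143 CPM against 101, 102 and 86.4 CPM. The SGC-CLK-1 libraries lay on both sides of the DMSO libraries, and the log2 fold change was 0.42 (SE 0.32, edgeR adjusted p = 0.62). RFC2, the most abundant of the loader subunits, had 358, 288 and 279 CPM against 244, 266 and 259 CPM. These did not overlap, and the log2 fold change was 0.27 (SE 0.21, edgeR adjusted p = 0.61). RFC3, RFC4 and RFC5 had log2 fold changes of 0.37 (SE 0.39), 0.06 (SE 0.27) and 0.21 (SE 0.45). RFC5 shares 186 exon bases with WSB2 on the opposite strand.

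RFC1, the large subunit of the loader, was lower in sum at an unadjusted p under 0.05, and a short transcript of the gene fell. The gene sum was 196, 191 and 200.3 CPM against 280.0, 298 and 286 CPM, with no overlap and a log2 fold change of -0.56 (SE 0.21, edgeR adjusted p = 0.24). The transcript ENST00000509084 (RFC1-211), annotated without a coding sequence, had 2, 1 and 2 counts under the SGC-CLK-1 label and 18, 19 and 10 counts under the DMSO label. Every SGC-CLK-1 library was near the floor and every DMSO library well above it. It fell by 3.22 on the log2 scale (SE 0.54, edgeR's quasi-likelihood test, adjusted p = 0.00082), and the 5 counts against 47 gave a ratio of 0.100 per scaled library size, with an exact 95% interval of 0.0311 to 0.251 for counting error alone. Of the full-length transcripts, ENST00000381897 had 41, 23 and 22 counts against 29, 42 and 25, a log2 fold change of -0.24 (SE 0.26, edgeR adjusted p = 0.69). ENST00000349703, the canonical form, had a log2 fold change of -0.29 (SE 0.26, edgeR adjusted p = 0.61). In CPM both lay lower in all SGC-CLK-1 than in all DMSO libraries. With coding transcripts only, the RFC1 sum had a log2 fold change of -0.32 and no longer passed an unadjusted p of 0.05, nor did its most abundant transcript. RFC1 was the only gene of the 24 tested here for transcript usage that passed (edgeR's diffSpliceDGE, Benjamini-Hochberg adjusted p = 0.0051), where 0.277% of all 1804 genes did. Leaving out single libraries moved that adjusted p between 0.0071 and 0.45, and it passed without SGC-CLK-1 library 3, DMSO library 2 or DMSO library 3 and not without SGC-CLK-1 library 1 (0.45), SGC-CLK-1 library 2 (0.072) or DMSO library 1 (0.20). The fall of the transcript itself passed without each of the 6.

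RFC1-211 lies on chr4:39312764-39318070 (GRCh38, minus strand), has 3 exons and 483 bases, and differs from the other RFC1 transcripts at its start. Its first exon has 207 bases inside intron 9 of the full-length transcripts and is part of no other RFC1 transcript. Its second exon is exon 10 of the 25 exons of the full-length form. Of the 183 stretches of 25 bases in the own exon, 111 (60.7%) also occur in annotated transcripts of 2645 other genes, and 2195 transcripts listed in these libraries hold such a stretch. Reads of other transcripts that carry this repeated sequence could therefore have been placed on RFC1-211, and their part in the result was not tested.

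**Figure D4:**
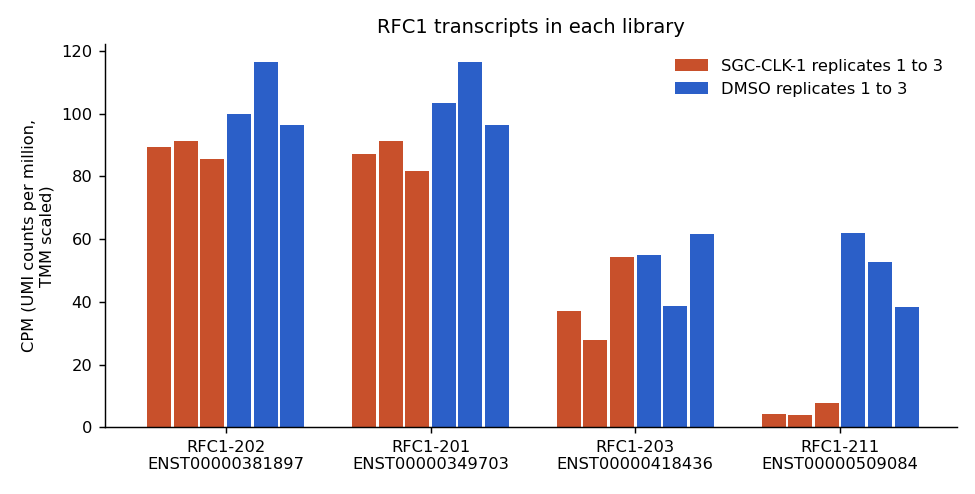
CPM (y axis, linear from 0) of the 4 tested RFC1 transcripts in each library, with SGC-CLK-1 libraries 1 to 3 in orange and DMSO libraries 1 to 3 in blue. RFC1-211 stands between 3.97 and 7.78 CPM in the SGC-CLK-1 and between 38.5 and 62.0 CPM in the DMSO libraries, while the full-length transcripts RFC1-202 and RFC1-201 lie between 81.7 and 91.4 CPM in the SGC-CLK-1 and between 96.3 and 116 CPM in the DMSO libraries.

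For the proteins that coat exposed strands and join Okazaki fragments, 2 of 3 tested genes were higher at an unadjusted p under 0.05 and the median log2 fold change was 0.69. FEN1, the flap nuclease and the most abundant of them, had 143, 106 and 112 CPM against 81.2, 77.4 and 66.5 CPM, a log2 fold change of 0.69 (SE 0.28, edgeR adjusted p = 0.29) without overlap. FEN1 missed an unadjusted p of 0.05 in DESeq2 and without SGC-CLK-1 library 1, DMSO library 2 or DMSO library 3. LIG1, the ligase that seals the nicks, had 105, 144 and 60.7 CPM against 72.8, 0 and 33.2 CPM. DMSO library 2 held no count for it, and the groups overlapped, with a log2 fold change of 1.59 (SE 0.67, edgeR adjusted p = 0.30). The value was 0.93 without DMSO library 2 and 2.80 without DMSO library 1, and LIG1 was past an unadjusted p of 0.05 neither in DESeq2 nor without DMSO library 2, SGC-CLK-1 library 1 or SGC-CLK-1 library 2. With no filter on low counts LIG1 passed the adjusted threshold (edgeR adjusted p = 0.015). RPA2 had a log2 fold change of 0.36 (SE 0.39). RPA1 and RPA3 were not tested.

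Of the 4 tested genes of origin licensing, 1 was higher at an unadjusted p under 0.05, where 6.89% of all genes tested were, and the median log2 fold change was 0.17. CDC6, which loads the MCM ring together with CDT1, had 115, 97.0 and 127 CPM against 42.0, 75.1 and 43.2 CPM, so that all SGC-CLK-1 libraries lay above all DMSO libraries, with a log2 fold change of 1.06 (SE 0.33, edgeR adjusted p = 0.14). ORC6, the most abundant of the group, had 164, 144 and 152 CPM against 157, 173 and 136 CPM and a log2 fold change of -0.02 (SE 0.24). ORC2 and GMNN, the inhibitor of CDT1, lay at 0.36 (SE 0.35) and -0.15 (SE 0.37). ORC1, the large subunit of the origin recognition complex, was below the filter with 12, 9 and 12 counts against 0, 2 and 2 counts, and is named for these values. CDT1 had 7, 0 and 3 counts against 4, 3 and 3 counts and was not tested either.

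The fork protection complex had a median log2 fold change of -0.50 over 3 genes, none past an unadjusted p of 0.05. CLSPN, the mediator of the replication checkpoint, had 563, 494 and 385 CPM against 361, 279.9 and 422 CPM and a log2 fold change of 0.45 (SE 0.22, edgeR adjusted p = 0.39). DMSO library 3 lay inside the range of the SGC-CLK-1 libraries. TIMELESS and its partner TIPIN had log2 fold changes of -0.50 (SE 0.33) and -0.52 (SE 0.45), with overlapping groups.

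In nucleotide supply the large subunit of ribonucleotide reductase, RRM1, had 305, 432 and 288 CPM against 190.4, 268 and 149.6 CPM, a log2 fold change of 0.73 (SE 0.26, edgeR adjusted p = 0.20). RRM2, its small subunit and the most abundant of the 3, had 484, 601 and 619 CPM against 554, 432 and 402 CPM, a log2 fold change of 0.29 (SE 0.20, edgeR adjusted p = 0.58). RRM1 was separated between the groups and RRM2 was not, since DMSO library 1 exceeded SGC-CLK-1 library 1. TYMS, thymidylate synthase, had 149.9, 103 and 100.1 CPM against 56.0, 45.5 and 96.4 CPM and a log2 fold change of 0.88 (SE 0.34, edgeR adjusted p = 0.25). TYMS shares 967 exon bases with ENOSF1 on the opposite strand, which itself rose by a log2 fold change of 1.45 (SE 0.29, edgeR adjusted p = 0.0498). Reads were oriented by their poly(A) tail before mapping, but whether the counting used the strand is not given in the sources used here. Reads that end within the shared bases may therefore have been placed on either gene, and their part in these values was not tested. The median of the 3 genes was 0.73.

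Genes that rebuild chromatin behind the fork held 2 of the 3 adjusted calls. ATAD2, a chromatin ATPase with a bromodomain, had 202, 416 and 407 CPM against 109, 93.3 and 99.7 CPM. Its SGC-CLK-1 libraries were all above its DMSO libraries, with library 1 the lowest of the 3, and it rose by a log2 fold change of 1.74 (SE 0.29, edgeR's quasi-likelihood test, adjusted p = 0.035). HELLS, a remodeller needed for DNA methylation, had 394, 454 and 564 CPM against 227, 229.8 and 189.5 CPM and rose by 1.12 (SE 0.22, edgeR adjusted p = 0.0498). CHAF1B, a subunit of the histone chaperone CAF-1, had 84.4, 93.9 and 97.1 CPM against 25.2, 59.2 and 36.6 CPM, again without overlap, and a log2 fold change of 1.15 (SE 0.37, edgeR adjusted p = 0.16). DNMT1, the maintenance DNA methyltransferase and the most abundant of these 6 as a gene sum, had 448, 501 and 425 CPM against 420.0, 262 and 389 CPM, a log2 fold change of 0.36 (SE 0.22, edgeR adjusted p = 0.50). By single transcripts HELLS was higher. Its ENST00000371327 had means of 457 CPM under the SGC-CLK-1 label and 198 CPM under the DMSO label. The highest DNMT1 transcript, ENST00000340748, had 152 and 109 CPM. CHAF1A and UHRF1, which recruits DNMT1, had log2 fold changes of 0.46 (SE 0.22) and 0.14 (SE 0.24). The median of the group was 0.79, and 3 of 6 were higher at an unadjusted p under 0.05.

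In edgeR the adjusted calls of the 43 gene sums were close to the threshold. DESeq2 put the adjusted p of ATAD2, HELLS and MCM3 at 9.8e-05, 0.0016 and 0.0017, and edgeR without a filter at 1.3e-06, 0.0027 and 0.00024. With library sizes that include unmatched transcripts, HELLS and MCM3 missed the threshold (both 0.0502). Leaving out single libraries moved the edgeR adjusted p of ATAD2 between 0.0077 and 0.24, of HELLS between 0.072 and 0.24 and of MCM3 between 0.044 and 0.24. ATAD2 passed without SGC-CLK-1 library 1 and MCM3 without DMSO library 2, and neither these in another case nor HELLS in any case passed. The log2 fold changes stayed between 1.57 and 2.02 for ATAD2, 0.95 and 1.22 for HELLS, and 1.31 and 1.85 for MCM3.

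By subgroup the median log2 fold change ran from 1.22 for the MCM hexamer over 0.79 for chromatin assembly, 0.73 for nucleotide supply, 0.69 for strand coating and joining and 0.43 for helicase activation to 0.24 for the polymerases, 0.24 for the clamp and loader, 0.17 for origin licensing and -0.50 for fork protection. The hexamer was the only subgroup in which every tested gene was higher at an unadjusted p under 0.05. These are descriptions of 3 to 8 genes each, and the differences between subgroups were not tested.

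Counts of single transcripts gave more calls than gene sums. Of 86 tested transcripts of these genes, 17 rose, where 1.85% of all 7840 transcripts did, and 1 fell, RFC1-211, where 2.1% did, so that 18 passed against 3.95% of all (edgeR's quasi-likelihood test, adjusted p under 0.05). The log2 fold change was above 0 for 69 of the 86, where 49.5% of all transcripts had such a value. The 17 came from 9 genes, namely MCM3 to MCM7, MCM10, ATAD2, CHAF1B and HELLS, and 13 were annotated as protein coding, 3 as targets of nonsense-mediated decay and 1 as a retained intron. Since secondary alignments of a read were kept, transcripts of a gene can share molecules, and the 4 transcripts that rose for MCM4 and for ATAD2 are not separate observations. The most abundant transcript of each gene avoids this. It was tested in 37 genes, of which 8 rose and none fell, with a median log2 fold change of 0.48 beside -0.0058 for all transcripts tested. At an unadjusted p under 0.05 it was 15 higher and 1 lower, where 8.93% and 9.11% of all transcripts were. Of the 18 transcript calls, 8 held in every alternative that could be fitted, namely those of the 4 ATAD2 transcripts, HELLS ENST00000371327, MCM3 ENST00000616552, MCM4 ENST00000648519 and RFC1-211, and 10 were lost in at least 1. The most abundant transcript held a median of 40.2% of the counts of its gene.

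For MCM6 a single transcript, ENST00000264156, held 93.7% of the counts, with 51, 39 and 38 counts against 17, 22 and 11, and rose by a log2 fold change of 1.31 (SE 0.28, edgeR adjusted p = 0.0083), a call missed without SGC-CLK-1 library 2 (0.051). The canonical MCM5 transcript ENST00000216122 had 39, 11 and 13 counts against 8, 6 and 3 and rose by 1.74 (SE 0.42, edgeR adjusted p = 0.016). That call was lost in DESeq2 (adjusted p = 0.0999), without SGC-CLK-1 library 1 (0.18) and without DMSO library 3 (0.052). The canonical CHAF1B transcript ENST00000314103 had 36, 27 and 29 counts against 8, 21 and 9 and rose by 1.23 (SE 0.32, edgeR adjusted p = 0.028). It was lost in DESeq2 (adjusted p = 0.11), without a filter (0.098) and without SGC-CLK-1 library 2 (0.12), SGC-CLK-1 library 3 (0.10), DMSO library 1 (0.14) or DMSO library 3 (0.072). In MCM6 and MCM5 the gene sum had missed the adjusted threshold with a similar fold change. The MCM7 transcript that rose, ENST00000489841, carries a retained intron and had 74, 46 and 27 counts against 17, 33 and 18, a log2 fold change of 1.02 (SE 0.27, edgeR adjusted p = 0.031). The call held without SGC-CLK-1 library 3 or DMSO library 2, and was lost without each of the other libraries (adjusted p between 0.069 and 0.18), without a filter (0.12) and in DESeq2 (0.12). The MCM10 transcript ENST00000378694 had 34, 18 and 17 counts against 6, 13 and 9 (log2 fold change 1.20, SE 0.34, edgeR adjusted p = 0.043). Of the fits without a library it passed only without DMSO library 2, with an adjusted p between 0.065 and 0.21 in the other 5, and it was lost in DESeq2 (0.21) and without a filter (0.22).

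The HELLS sum rested on a partial transcript. ENST00000371327 (chr10:94588229-94613905, 12 exons) held 76.6% of the HELLS counts, with 175, 119 and 133 counts against 70, 82 and 33, and rose by 1.18 (SE 0.23, edgeR adjusted p = 0.0040). The canonical transcript ENST00000348459, with 22 exons, had 12, 8 and 13 counts against 2, 6 and 6 and was below the filter. Its groups did not overlap either.

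UHRF1, named after its values were seen, was the other gene with an unadjusted usage p under 0.05 (edgeR's diffSpliceDGE), where 1.72% of genes had such a p. Its most abundant transcript, ENST00000612630, had 48, 14 and 22 counts against 39, 48 and 32, and a log2 fold change of -0.62 (SE 0.27, edgeR adjusted p = 0.21). Its canonical transcript ENST00000650932 had 39, 13 and 21 counts against 13, 12 and 16, and a log2 fold change of 0.71 (SE 0.33, edgeR adjusted p = 0.26). The gene sum of UHRF1 thus added transcripts of opposite sign, neither past the adjusted threshold.

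Further lists of related genes were compared with all genes tested. Of 18 tested among 27 further replication factors, 5 were higher and none lower at an unadjusted p under 0.05, beside 6.89% and 6.92% of all genes tested, with a median log2 fold change of 0.28. Of 12 tested most abundant transcripts in this list, 1 rose, that of the histone chaperone subunit RBBP4 (log2 fold change 0.74, SE 0.21, edgeR adjusted p = 0.039), where 1.85% of all transcripts tested rose. DNA2, a nuclease of flap processing, had 58.6, 81.3 and 39.4 CPM against 16.8, 15.9 and 29.9 CPM (log2 fold change 1.53, SE 0.47, edgeR adjusted p = 0.14). MCM8, a relative of the hexamer that acts in recombination, had 210.2, 228 and 185 CPM against 98, 114 and 156 CPM (log2 fold change 0.77, SE 0.26, edgeR adjusted p = 0.18). Neither gene overlapped between the groups. Of 13 tested among 17 further genes of nucleotide synthesis, 1 was higher and 1 lower, with a median of 0.09. These shares lie near those of all genes tested, 6.89% and 6.92%. GART of purine synthesis had 248, 435 and 246 CPM against 137, 152 and 56.5 CPM (log2 fold change 1.39, SE 0.33, edgeR adjusted p = 0.081), and DTYMK, thymidylate kinase, 25.8, 37.5 and 21.2 CPM against 84.0, 54.6 and 43.2 CPM (log2 fold change -1.11, SE 0.43, edgeR adjusted p = 0.26). Of 6 tested histone supply genes 1 was higher, where 6.89% of all genes tested were, namely SLBP, which binds histone mRNA, with 105, 116 and 106 CPM against 47.6, 81.9 and 56.5 CPM (log2 fold change 0.79, SE 0.31, edgeR adjusted p = 0.26), and the median was 0.04. NASP, a histone chaperone, had 686, 713 and 674 CPM against 739, 785 and 722 CPM, lower without overlap, and a log2 fold change of -0.12 (SE 0.18, edgeR adjusted p = 0.83).

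Genes of the G2 and M phases were lower more often than higher. Of 19 tested among 20, 9 were lower at an unadjusted p under 0.05, where 6.92% of all genes tested were, 1 was higher, and the median log2 fold change was -0.46. None passed the adjusted threshold as a gene sum. By the most abundant transcript, tested in 16 of these genes, 5 fell and none rose, where 2.1% and 1.85% of all transcripts did. The log2 fold change was -1.03 for CCNB1 (SE 0.22, edgeR adjusted p = 0.0076), -0.93 for CENPF (SE 0.21, adjusted p = 0.010), -1.16 for PLK1 (SE 0.26, adjusted p = 0.011), -0.98 for CDC20 (SE 0.25, adjusted p = 0.026) and -0.76 for CENPE (SE 0.21, adjusted p = 0.034). These transcripts, and that of RBBP4, were not refitted without single libraries. As gene sums, PLK1, a mitotic kinase, had 208, 138 and 91.0 CPM against 353, 378 and 352 CPM (log2 fold change -1.28, SE 0.27, edgeR adjusted p = 0.053). CENPF, a kinetochore protein, had 401, 585 and 628 CPM against 876, 1156 and 1267 CPM (log2 fold change -1.04, SE 0.22, edgeR adjusted p = 0.053). For both, all SGC-CLK-1 libraries lay below all DMSO libraries. CDK1, named after its values were seen, was the gene that was higher, with a log2 fold change of 0.58 (SE 0.27, edgeR adjusted p = 0.36). The list summed to 4193, 4283 and 4375 CPM under the SGC-CLK-1 label and 5981, 7071.5 and 6829.5 CPM under the DMSO label, and the 51 replication genes to 8691, 8532 and 8332 CPM against 6719.7, 6099.9 and 6327 CPM. The words of the E2F element were found in 2 of 16 G2 and M genes with a promoter window (12.5%) and in 6 of 21 of the further replication factors (28.6%).

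**Figure D5:**
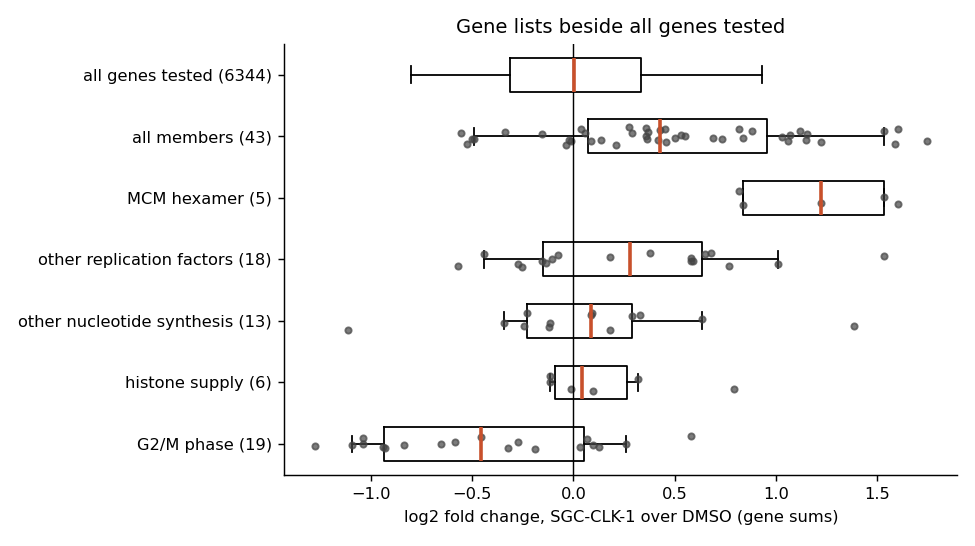
Log2 fold changes (x axis) of the tested genes of each list, as points over boxes for the quartiles with whiskers from the 5th to the 95th percentile and an orange line at the median. Numbers in parentheses are tested genes. The median is 1.22 for the MCM hexamer, 0.43 for all 43 replication genes and -0.46 for the G2 and M genes, beside 0.00066 for all genes.

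CLK1, the kinase named by the labels, had 118 ± 49.0 CPM (SD, n = 3) under the SGC-CLK-1 label and 271 ± 48.4 CPM (SD, n = 3) under the DMSO label. Its log2 fold change was -1.19 (SE 0.29, edgeR adjusted p = 0.087). How the inhibitor affects this RNA was not tested, so its level does not settle the labels. Of the 7 tested Ewing sarcoma markers 1 was higher and 2 were lower at an unadjusted p under 0.05, where 6.89% and 6.92% of all genes were, 6 had a log2 fold change below 0, and the median was -0.30. EWSR1, a partner in the fusion gene of this tumour, had a log2 fold change of 0.56 (SE 0.24, edgeR adjusted p = 0.32), CCND1, a G1 cyclin, -0.45 (SE 0.20, edgeR adjusted p = 0.33) and ID2, an inhibitor of helix-loop-helix factors, -0.58 (SE 0.27, edgeR adjusted p = 0.35).

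Some library properties also differed between the groups. Mitochondrial transcripts took 0.723, 0.534 and 0.517% of counts under the SGC-CLK-1 label and 0.883, 0.757 and 0.858% under the DMSO label, without overlap, and their part in the results was not tested. The median annotated length of counted transcripts was 2812, 2957 and 2935 bases against 2690, 2855 and 2644 bases, with DMSO library 2 above SGC-CLK-1 library 1. The share of counts matched to an annotated gene was 93.3, 93.4 and 93.4% against 92.8, 92.5 and 92.7%, without overlap, and its part in the results was not tested beyond the library sizes above. Over all genes tested, the median log2 fold change went from -0.18 for the 1271 shortest to 0.07 for the 1269 longest genes. With an offset for length in the fit, ATAD2, HELLS and MCM3 still rose (edgeR adjusted p = 0.029, 0.040 and 0.035). With the replicate number as a block beside the offset, ATAD2 and MCM3 passed (edgeR adjusted p = 0.037 and 0.048) and HELLS did not (0.072). The 43 tested replication genes had a median length of 3208 bases, beside 3409.5 for all genes tested. Of the 18 replication genes up to 2798 bases, 2 were higher at an unadjusted p under 0.05, where 5.04% of all 2538 genes of these lengths were. Of the 24 between 2799 and 6144 bases 14 were, where 7.69% of all 2537 genes were. What length contributes beyond the offset was not tested.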

How the data were processed

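RM82 libraries were made from polyadenylated RNA with 30-base homotrimer UMIs and sequenced on a nanopore PromethION. The authors called bases, found the UMIs by pattern matching, mapped reads to human transcripts with minimap2 (version 2.22 per the labels), keeping secondary alignments, and deposited UMI counts per transcript without normalization, 1 library per file. A gene sum can therefore count a molecule more than once. The labels' tool list names UMI-tools, while the study's nanopore methods describe a set coverage method for homotrimer UMIs. Which of them made these counts is therefore not settled. Whether strand was used is not given in the sources used here. The labels name an Illumina kit for the extract, while the study's methods describe the nanopore procedure.

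A transcript not listed in a library was set to 0. Identifiers without version were paired with genes in GENCODE release 44 (GRCh38), which matched 86362 of 93530 transcripts (92.3%). Counts were summed by symbol and tested with edgeR 4.0.16 under R 4.3.3 (genes kept by filterByExpr at a minimum count of 10 and total of 15, TMM scaling, glmQLFit and glmQLFTest, Benjamini-Hochberg over all features, threshold 0.05). Transcript counts were tested in the same way, and transcript usage with diffSpliceDGE. DESeq2 1.42.0 was an alternative. The common coefficient of variation was 0.244 for gene sums and 0.169 for transcripts. Pairs of replicates differed by more than sampling noise, with a chi-square per degree of freedom between 1.38 and 3.02. Intervals used scipy 1.17.1. Simulated counts were put through the edgeR fits of gene sums, with and without the length offset, and of transcripts, the DESeq2 fit of gene sums and the usage test. The simulation gave every feature the same spread and drew transcripts independently, unlike these data. The other steps were not tested on simulated counts.

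Values per library are given for genes past the adjusted threshold, up to 15 with the smallest gene-sum p, the most abundant tested gene of each subgroup, genes with a transcript or usage call, and the 2 genes with the smallest p of each further list. PCNA, LIG1, MCM2, ORC1, CDT1, CD99, CLK1 and ID2 were added outside this rule, with their values known. The genes, lists and tests were chosen with earlier results of these data known. The alternatives were other scalings and filters, DESeq2, coding transcripts only, the most abundant transcript, a length offset, the replicate number as a block and leaving out each library. The table of PCR cycles, whose 4 sample columns could not be paired with labels, and the reports on error-free identifiers were not used. The sequence of an RFC1 exon is not reported here.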

Additional observations from a re-analysis of the deposited data

How the results depend on the processing

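Without single libraries 12 to 17 replication genes were higher at an unadjusted p under 0.05, of which 12 to 15 were among the 16 of the report, and all 5 tested MCM genes were among them in every setting except the filter of 10 counts in every library, which dropped MCM5. The count of genes past the adjusted threshold (20) became 169 without a filter, 64 with at least 10 counts in every library, 112 in DESeq2 (40 higher and 72 lower, against 12 and 8), 148 for the most abundant transcript of each gene and 1 to 21 without single libraries (at most 6 unless the library left out was DMSO library 2, which gave 21). Of the replication genes, 3 in the report, 6 passed without a filter, 8 by the most abundant transcript, 1 (ATAD2) with library sizes that include unmatched transcripts, an alternative chosen after seeing the data, and 0 to 1 without single libraries. The 2 lower genes became 1 with coding transcripts only, RFC1 being lost, and 1 to 2 without single libraries (1 without SGC-CLK-1 library 2 or DMSO library 2, POLE3 being lost). Usage calls (5, of which 1 replication gene) became 2 and 0 without a filter, 1 and 0 with at least 10 counts in every library, which drops RFC1-211, and 1 to 5 and 0 to 1 without single libraries. Transcript calls (310, of which 18 of replication genes) became 162 without a filter, 173 and 6 with at least 10 counts in every library, 98 and 10 in DESeq2, and 81 to 363 and 9 to 22 without single libraries, lowest without SGC-CLK-1 library 2 and highest without DMSO library 2. The report names the libraries that decide the calls of ATAD2, HELLS, MCM3 and RFC1 usage.

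Libraries share only a replicate number: deviations of same-numbered libraries correlated at 0.063, 0.024 and 0.031. With the replicate block 36 genes passed, 3 of them replication genes, and 16 replication genes were higher at an unadjusted p under 0.05. With the block and the length offset together, 16 genes passed, 2 of them replication genes (not HELLS). Library size alone as the scaling moved the median log2 fold change of all genes to 0.075 and the shares of genes higher and lower at an unadjusted p under 0.05 to 8.80% and 5.08%, with the same 3 calls. Of the values other than these counts, 614 stayed the same, 71 lost the threshold and 10 gained it. For fold changes and usage, the same means an unchanged direction and side of the threshold. For subgroup medians, which have no threshold, it means a move smaller than the median SD of their genes between libraries of a group. Another 5, all of them medians, moved by more. No fold change reversed its direction, and medians were not checked for a reversal. These values do not cover every gene or transcript printed here. By the most abundant transcript, UHRF1 had a log2 fold change of -0.62, against 0.14 as a gene sum, and POLE -0.16 against 0.50. The median of all genes, 0.00066, changed sign without SGC-CLK-1 library 1, 2 or 3 (-0.015, -0.018 and -0.017). Adjusted calls over all genes, 12 higher and 8 lower, became 14 and 22 with the block. Depth limits the 8 genes that were not tested, and each library held at most 666702 counts. Causes were not tested.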
